A study of Mus musculus with 2 samples.

Results

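The 39 Hox genes of the mouse lie in 4 clusters and were examined for binding of TCF12 in a B-cell line. They were chosen as all protein-coding genes named Hoxa, Hoxb, Hoxc or Hoxd plus a number, and were set against the 20923 protein-coding genes of the autosomes and X chromosome that could be given a 5' end. There are 11 Hoxa genes on chromosome 6, 10 Hoxb genes on chromosome 11, 9 Hoxc genes on chromosome 15 and 9 Hoxd genes on chromosome 2. TCF12, also known as HEB, was mapped by ChIP-seq, the sequencing of DNA pulled down with an antibody to the factor. The cells were CH12.LX, an immortalised B-cell lymphoma line from a female mouse of strain B10.H-2aH-4bp/Wts, with an age given as unknown. There was 1 group of 2 biological replicates of this single line, and the labels name no treatment, second cell type or second genotype. The authors' optimal list holds 35836 peaks on these chromosomes, kept because their ranks repeat (the irreproducible discovery rate, IDR, step), and their pooled relaxed list holds 299903 peaks that include background. The signal of a peak is the caller's own value, with no stated scaling, and its median was 35 in the optimal list and 7.47 in the relaxed list. Read depth is unknown, and binding near a gene says nothing on whether the gene is expressed.

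Hox genes encode homeodomain transcription factors that give cells along the body axis their position. In each cluster the genes are numbered by paralogue group, and their order on the chromosome matches the order in which they are used, with low numbers acting early and in the head and neck and high numbers late and towards the tail. Polycomb complexes keep the clusters silent and MLL complexes keep them active, and in blood a few of the genes, chiefly of the Hoxa and Hoxb clusters, act in stem and progenitor cells and are turned down as cells mature. TCF12 belongs to the E proteins, which bind the E-box motif CANNTG through a basic helix-loop-helix domain, paired with each other or with a partner found in few tissues.

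An optimal TCF12 summit lay within 5 kb of the 5' end of 12 of the 39 Hox genes, 30.8% (95% exact binomial interval 17 to 47.6), against 47.7% of all protein-coding genes. Many other genes also have close neighbours, and of genes whose next 5' end lay within 20 kb, 56.8% had such a summit. Within 1 kb of the 5' end, 4 Hox genes (10.3%) held an optimal summit, against 40.6% of all genes. Within 10 kb the shares were close, with 20 Hox genes (51.3%) against 52.7%. These distances rest on the outer RefSeq ends, and the GENCODE ends used with the authors' separate mm9 list differ for some Hox genes. By the mm9 list and those ends, 5 Hox genes had a summit within 1 kb, against 35.3% of all genes, and 10 within 5 kb, against 40.5%. The relaxed list ran the other way: 38 of the 39 Hox genes (97.4%) had a pooled relaxed summit within 5 kb, against 77.6% of all genes. Of genes whose next 5' end lay within 20 kb, 82.4% had one. A high relaxed share was not particular to Hox genes. It was 90.2% for the other developmental homeobox genes and 100% for the Polycomb genes described below. The medians were 4 relaxed summits per Hox gene and 3 per gene over all genes. Neighbouring Hox genes share summits, so the interval covers counting error for genes taken as independent and is too narrow. The count was 11 of 39 at a stricter IDR score of at least 830, against 41.9% of all genes. With as many of the strongest relaxed peaks of 1 replicate alone it was 16 of 39, against 48.6% of all genes for replicate 1 and 48.7% for replicate 2. With 1 group and 2 replicates there is no test between conditions.

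**Figure D1:**
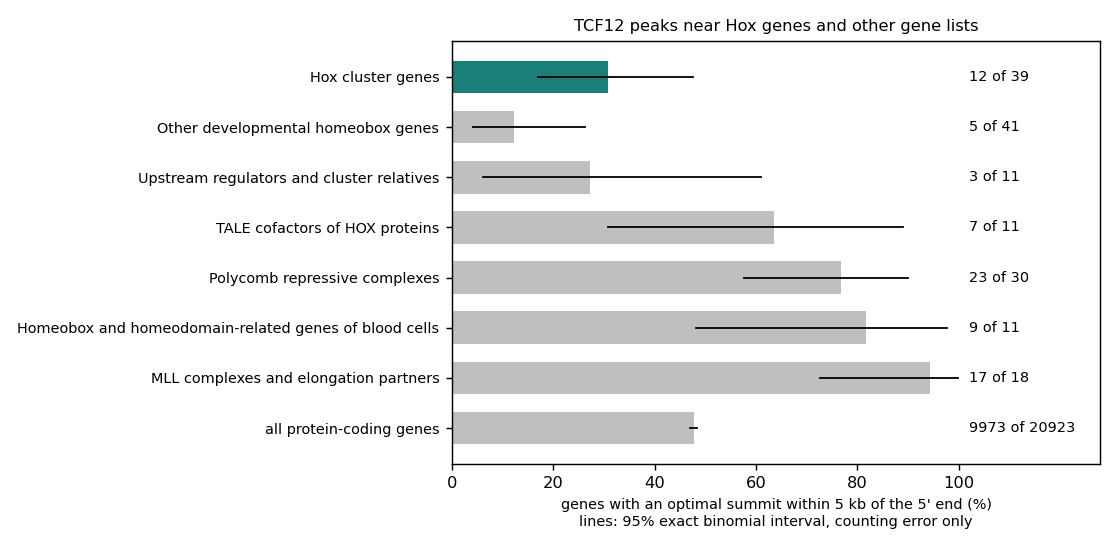
Bars give the percentage of genes in each list with an optimal TCF12 summit within 5 kb of the 5' end, lines the 95% exact binomial interval for counting error, and the text at the right the counts. Hox cluster genes stood at 30.8%, between other developmental homeobox genes at 12.2% and all protein-coding genes at 47.7%.

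Among the 12 genes were Hoxa2, Hoxa3, Hoxa6, Hoxa7 and Hoxa10, Hoxb3 and Hoxb4, Hoxc6 and Hoxc10, and Hoxd3 and Hoxd4. Group 3 was the one group with a summit at each of its genes, Hoxa3, Hoxb3 and Hoxd3, while groups 5, 8, 9, 11, 12 and 13 had none. The strongest summit of each of the 12 genes had a signal between 26.4 and 44.8, with a median of 35.8, against a median of 55.7 over all genes with an optimal summit near the 5' end. Of those 9973 genes, 63.8% had a summit stronger than that of Hoxa7, the strongest in the set. These values take only the strongest summit of each gene, and taken summit by summit the gap was smaller. The 12 distinct optimal summits within 5 kb of a Hox 5' end had a median of 35.8. The 14843 near all protein-coding 5' ends had a median of 39.1.

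**Figure D2:**
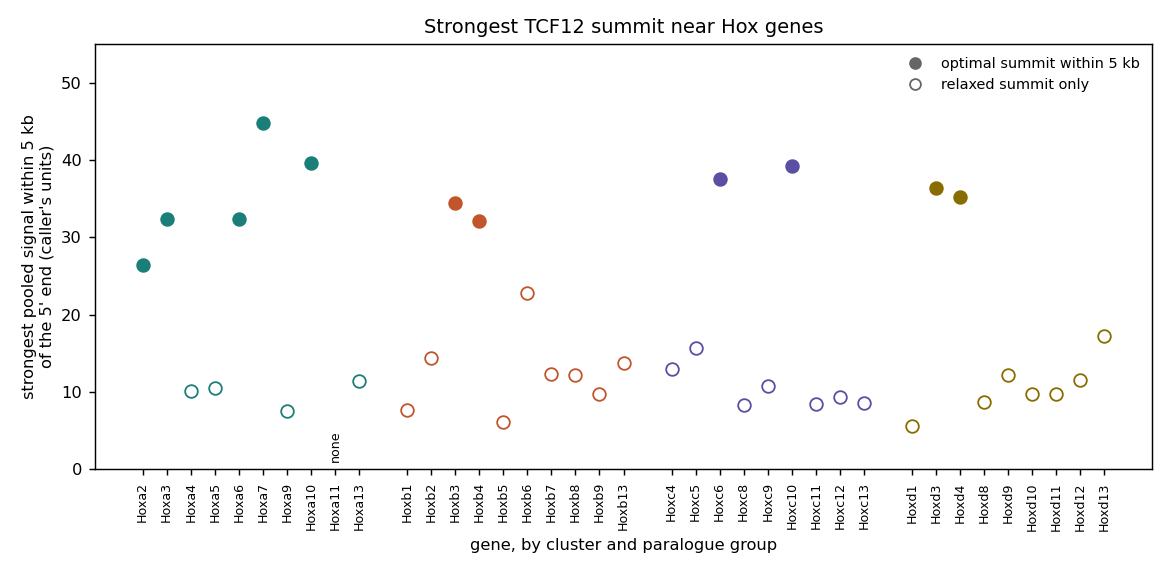
Each point is the strongest pooled TCF12 signal (vertical axis, caller's units) within 5 kb of the 5' end of 1 Hox gene described here, ordered by cluster and paralogue group, filled where the gene has an optimal summit. The filled points lie between 26.4 and 44.8, the open points between 5.66 and 22.8, and Hoxa11 has no summit.

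In the Hoxa cluster, Hoxa2, a gene of the hindbrain and second branchial arch, had its one optimal summit 4595 bp downstream of its 5' end, at chr6:52160044-52160427, with a signal of 26.4, and 17.3 and 11 in replicates 1 and 2. This summit lay outside Hoxa2, past the 3' end of its span at chr6:52162417-52164831. A single peak lay within 5 kb of the 5' ends of both Hoxa3, needed for the thymus and parathyroid, and Hoxa6. At chr6:52211544-52211927 its summit lay 1331 bp downstream of the Hoxa3 5' end and 3064 bp upstream of that of Hoxa6, with a signal of 32.4, and 21.1 and 11 in replicates 1 and 2. Hoxa7 had the strongest summit of the 12 genes, 3241 bp upstream of its 5' end at chr6:52221622-52222005. Its pooled signal was 44.8, and the replicates were nearly level, at 24 and 22. The positions of Hoxa6 and Hoxa7 depend on the annotation: with GENCODE ends, mm9 summits lay 380 bp upstream of the 5' end of Hoxa6 and 40 bp downstream of that of Hoxa7. Hoxa10, which acts in the uterus and in blood progenitors, had a summit 328 bp downstream of its 5' end at chr6:52240334-52240717, with a signal of 39.6. Here the replicates stood farthest apart of all 24 optimal peaks in the Hox windows, at 31.1 in replicate 1 and 7.62 in replicate 2.

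In the Hoxb cluster, both genes with a summit lie side by side, and the Hoxb4 span is nested in that of Hoxb3. Hoxb4, known for expanding blood stem cells when supplied in excess, had its summit 458 bp downstream of the 5' end at chr11:96318533-96318916, with a signal of 32.1, and 20.8 and 11.2 in replicates 1 and 2. This peak had an IDR score of 720, so Hoxb4 is the gene lost from the 12 at a score of at least 830. In the mm9 list the peak nearest to the Hoxb4 5' end lay 4992 bp upstream. Hoxb3 had its summit 4591 bp downstream at chr11:96311500-96311883, with a signal of 34.5, and 18.2 and 16.5 in replicates 1 and 2. The ratio of replicate 1 to replicate 2 was 1.1 at Hoxb3 and 1.86 at Hoxb4, against a median of 1.66 over all optimal peaks.

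Hoxc10, a gene of the lumbar spinal cord and hindlimb, had the one optimal summit of the Hoxc cluster within 1 kb of a 5' end. It lay 233 bp upstream at chr15:102966371-102966754, with a signal of 39.2, and 31.4 and 10.1 in replicates 1 and 2. Hoxc6, a gene of the thoracic and forelimb region, had a summit 1348 bp downstream at chr15:102999382-102999765, with a signal of 37.6, and 21.4 and 14.1.

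In the Hoxd cluster the optimal summits gathered within the long span of Hoxd3, which covers Hoxd4 and holds 5 of the 7 peaks of the window. Hoxd3, a gene of the neck vertebrae, had a summit 3994 bp downstream of its 5' end at chr2:74715795-74716178, inside the noncoding gene Hoxd3os1, with a signal of 36.4, and 25.2 and 8.19 in replicates 1 and 2. Hoxd4 had 2 optimal summits. The stronger, at chr2:74722843-74723226 and 1057 bp downstream, had a signal of 35.2 and was higher in replicate 2 (20.9) than in replicate 1 (12.2). The other, at chr2:74724671-74725054 and 2885 bp downstream, had a signal of 24, and 23.1 and 14.4 in replicates 1 and 2. The remaining 2 lay 9.26 and 11.3 kb downstream of the Hoxd4 5' end, with signals of 20.5 and 31.7.

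The 5 kb limit separated genes with similar distances. Just inside it were Hoxb3 and Hoxa2, at 4591 and 4595 bp. Just outside were Hoxa11, whose nearest optimal summit was that of Hoxa10, 5284 bp away, and Hoxb13 at 5493 bp and Hoxa9 at 5556 bp. For the 27 Hox genes without an optimal summit within 5 kb, the nearest lay between 5.28 and 47 kb away, with a median of 17.6 kb. The farthest belonged to Hoxb1, at the low-numbered end of its cluster.

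Of those 27 genes, 26 had a relaxed summit within 5 kb, and their strongest ranged from 5.66 at Hoxd1 to 22.8 at Hoxb6, with a median of 10.3. Hoxb6 had the most relaxed summits of any Hox gene, 11, and the strongest of them lay 12 bp downstream of its 5' end, with 17.2 in replicate 1 and 6.99 in replicate 2. This peak and a second one in Hoxb6 are in the authors' conservative list, though not in the optimal one. Next came Hoxd13, which shapes the digits, with a signal of 17.2 at 4617 bp upstream, at 13.7 in replicate 1 and with no overlapping peak in replicate 2. That summit lay nearer to the 5' end of Evx2, beside the cluster, than to that of Hoxd13. Hoxc5 followed at 15.7 (13.8 and 2.71 in replicates 1 and 2). Hoxb2 stood at 14.4 (4.85 and 9.41).

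Hoxb13, a gene of the tail and prostate, had a strongest relaxed signal of 13.8 within 5 kb (6.42 and 5.67 in replicates 1 and 2). Hoxc4, which in B cells helps to switch on the antibody-diversifying enzyme AID, had 13 at 24 bp from its outer 5' end (9.2 and 3.54). Hoxc4 has a second 5' end in RefSeq, at 103034395, and a peak at chr15:103033986-103034369 in the conservative list lies just before it, with a pooled signal of 21.2, and 9.76 and 14.7 in replicates 1 and 2. Hoxb7 and Hoxb8 had 12.3 and 12.2, Hoxd9 also 12.2, and Hoxd12 had 11.6. The other 16 genes with a relaxed summit lay between 5.66 and 11.4. Of these 16 values, 2 lay below 7.47, the median of single peaks in the relaxed list. Each value is the strongest of a gene's summits, so the measures are unlike. The median of the strongest relaxed signal was 33.2 over all protein-coding genes with a relaxed summit. The relaxed list includes background at an unknown level, so the signal alone does not tell whether the summits of these 16 genes are more than background.

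Hoxa11, a gene of the forearm and uterus, had no pooled relaxed summit within 5 kb. Replicate 1 had none there either, and replicate 2 had 1, with a signal of 2.63, near the floor of 2.56 of that replicate's list. In the replicates' own relaxed lists, 37 of 39 Hox genes had a summit within 5 kb in replicate 1, against 77.9% of all genes, and 39 of 39 in replicate 2, against 80.8%.

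Taken as regions, the clusters with 50 kb on each side held 24 optimal summits in 892 kb, 2.69 per 100 kb (95% exact Poisson interval 1.72 to 4), against 1.4 per 100 kb over the genome. Of genome tiles of the same length as a window, 14.6% (Hoxd) to 27.8% (Hoxc) held at least as many optimal summits as that window. The Hoxa window held 6, the Hoxb window 7, the Hoxc window 4 and the Hoxd window 7, and 17 of the 24 lay between the ends of a cluster's outermost genes. Relaxed summits numbered 287, or 32.2 per 100 kb (28.6 to 36.1), against 11.7 over the genome. They were densest in the Hoxb window, with 111 summits, or 40.5 per 100 kb, while the other windows held 56 to 60 each, or 27.8 to 29.2 per 100 kb. The windows are also rich in genes, with 3.65 to 5.35 protein-coding 5' ends per 100 kb against 0.817 over the genome. Measured over the merged 5 kb surroundings of 5' ends alone, optimal summits were sparser around Hox genes, at 3.75 per 100 kb against 7.83 around all genes, and relaxed summits denser, at 45 against 30.3. A smaller share of relaxed summits was optimal in the Hox windows, 8.36%, than in the whole list, 11.9%.

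**Figure D3:**
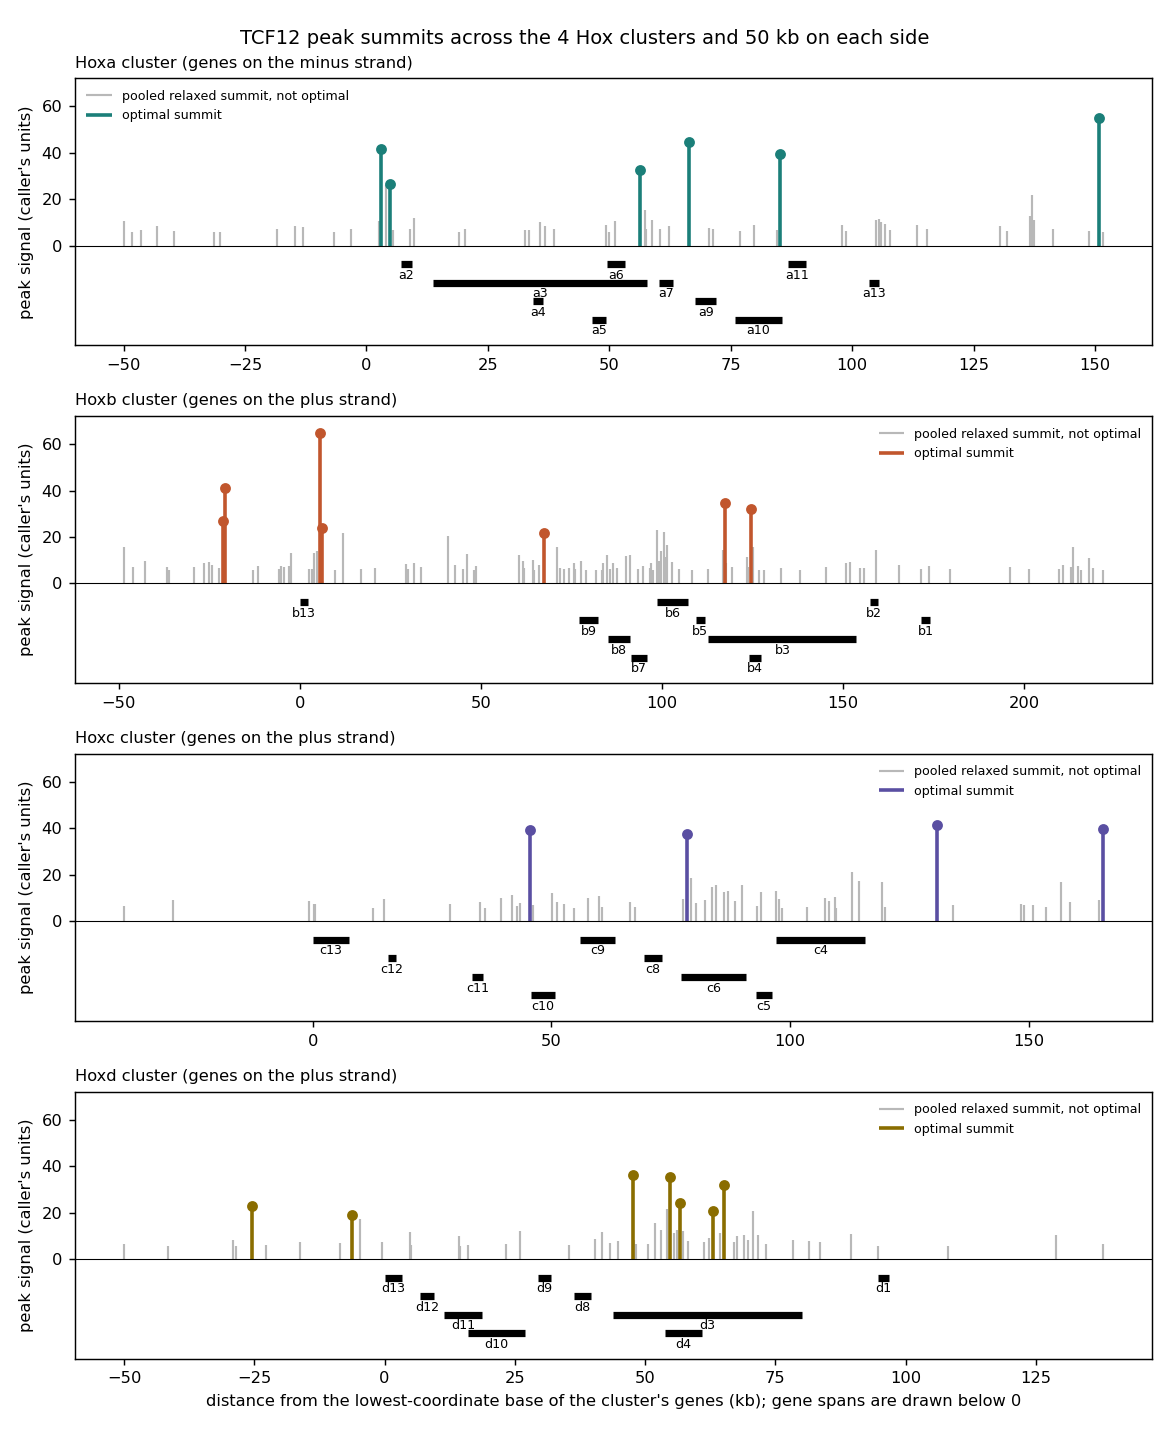
Each panel shows 1 Hox cluster with 50 kb on each side, with the distance from its lowest-coordinate gene base in kb across and the pooled signal of each TCF12 summit upwards; coloured lines with dots are optimal summits, grey lines relaxed ones, and black bars below 0 the spans of the genes described here, labelled by cluster letter and number. The 24 optimal summits have signals between 19 and 64.7, and the 5 within the Hoxd genes all lie in the span of Hoxd3.

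The 2 strongest optimal peaks of the windows were not at a Hox 5' end. The strongest, with a signal of 64.7, had its summit 5493 bp downstream of the Hoxb13 5' end at chr11:96199617-96200000, in the long stretch between Hoxb13 and Hoxb9 that holds noncoding genes such as Gm30134 and Gm11538. It stood at 33.4 in replicate 1 and 36.3 in replicate 2, and 21.2% of all optimal peaks were stronger. A weaker summit 6078 bp downstream of Hoxb13 had a signal of 24. The next strongest, 54.8, lay in the Hoxa flank at chr6:52305932-52306315, 7374 bp upstream of Evx1, the even-skipped relative beside the Hoxa cluster, with 33.5 and 25.7 in replicates 1 and 2. Evx1 itself had no summit within 5 kb in either list. Beside the Hoxd cluster, Evx2 had an optimal summit 460 bp upstream of its 5' end, the weakest of the 24, with a signal of 19, and 8.88 and 9.14 in replicates 1 and 2.

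The other flank peaks lay upstream of Hoxb13 and beyond Hoxc4. A pair sat 20.7 and 21.4 kb upstream of Hoxb13, with signals of 41.2 and 26.9, the first higher in replicate 1 (30.8 against 14.9 in replicate 2) and the second lower (11.3 against 16.2). Peaks 33.8 and 68.7 kb downstream of the outer Hoxc4 5' end had signals of 41.3 and 39.5. The last, 25.5 kb upstream of Hoxd13, had a signal of 22.7. Over all 24 peaks the signal ran from 19 to 64.7, with a median of 34.9 against 35 for the whole optimal list. The upper end was lower, as only the strongest peak, at 64.7, exceeded the whole list's upper quartile of 58.6. By window, the median ran from 24 (Hoxd) to 40.6 (Hoxa).

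All 24 peaks overlapped a peak in both replicates' relaxed lists, by at least 1 bp. Replicate 1 had the higher signal at 19 of the 24, and its ratio to replicate 2 had a median of 1.65 and ran from 0.583 to 4.07. Over all optimal peaks found in both replicates, 85.7% were higher in replicate 1 and the median ratio was 1.66. The median ratio at Hox peaks was thus close to that over all optimal peaks, while single Hox peaks varied widely around it. The source of the offset was not tested, and a ratio near 1.65 at a single peak is not read as a difference between replicates.

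**Figure D4:**
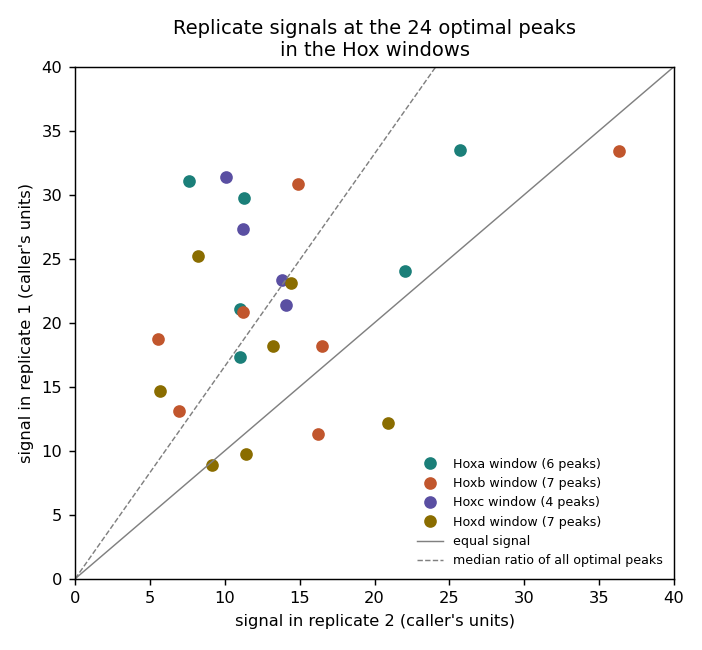
Each point is 1 of the 24 optimal peaks in the Hox windows, with its signal in replicate 2 across and in replicate 1 upwards, both in the caller's units and coloured by cluster. The solid line marks equal signal and the dashed line the median ratio over all optimal peaks, 1.66, and 19 points lie above the solid line.

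Hox clusters also hold microRNA genes that repress Hox messages among other targets. Mir10a, between Hoxb5 and Hoxb4, had an optimal summit 1560 bp downstream of its 5' end, which is the Hoxb4 summit with a signal of 32.1. Mir10b, inside the spans of Hoxd3 and Hoxd4, had both Hoxd4 summits upstream, 1207 bp away with a signal of 24 and 3035 bp away with a signal of 35.2. Mir196a-1, near Hoxb9, had one 3410 bp upstream, with a signal of 21.8 (13.1 and 6.93 in replicates 1 and 2). Mir196a-2 and Mir196b had none within 5 kb, with the nearest 6.79 and 8.35 kb away. No share over all microRNA genes is given here, so these summits are described without a background to read them against. The mature 5p strands are shown because they fall into 2 pairs by seed (bases 2 to 8, in capitals; sequences from RefSeq, 5' to 3'), with at least 1 nearby summit in each pair.
miR-10a-5p: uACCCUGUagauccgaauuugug
miR-10b-5p: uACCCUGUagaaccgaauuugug
miR-196a-5p: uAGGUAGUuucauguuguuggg
miR-196b-5p: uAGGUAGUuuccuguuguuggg
The seed of both miR-10 strands is ACCCUGU and that of the miR-196 strands AGGUAGU.

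The sequence under the peaks was read from the authors' separate mm9 list, which places 20 peaks in the 4 Hox windows, 6, 5, 5 and 4 in Hoxa to Hoxd, with signals between 31.1 and 82.6. Within 50 bp of the summit, 5 of the 20 (25%, 95% exact binomial interval 8.66 to 49.1) held CAGCTG or CACCTG on either strand, the E-boxes that E proteins prefer, against 31% of all 23572 mm9 peaks. CAGCTG and CACCTG were each in 3 of the Hox peaks. Any CANNTG, a class that includes both, was in 9 of 20 (45%) against 52.1%. The summits below were chosen to show each kind (the summit with 50 bases on each side, mm9, plus strand, E-boxes in capitals, no capitals where neither E-box was found). They cover 3 summits with an E-box, then the strongest mm9 peak of the windows and 1 other without one.
Evx1 side of the Hoxa cluster, chr6:52256132-52256232: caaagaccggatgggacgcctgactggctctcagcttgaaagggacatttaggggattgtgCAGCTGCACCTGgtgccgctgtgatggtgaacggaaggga
Hoxb13 far upstream, chr11:96034220-96034320: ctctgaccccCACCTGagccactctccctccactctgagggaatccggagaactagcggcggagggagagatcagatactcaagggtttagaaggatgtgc
Hoxc4 far downstream, chr15:102917207-102917307: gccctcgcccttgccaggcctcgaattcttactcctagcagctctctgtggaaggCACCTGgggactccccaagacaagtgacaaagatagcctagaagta
Hoxb13 downstream, strongest, chr11:96061078-96061178: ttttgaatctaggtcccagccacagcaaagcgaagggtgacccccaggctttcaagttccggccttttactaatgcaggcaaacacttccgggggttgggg
Hoxd4 intron, chr2:74561059-74561159: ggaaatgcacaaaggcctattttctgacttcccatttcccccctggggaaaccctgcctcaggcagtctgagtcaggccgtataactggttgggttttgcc
In the flank beyond Hoxa13 a CAGCTG is followed directly by a CACCTG, and the CAGCTG was centred 14 bp from the summit. The strongest mm9 peak, with a signal of 82.6, held neither E-box, nor any other CANNTG. Another CAGCTG, centred 32 bp from a summit in the annotated UTR of Hoxa7, is not shown. The median G+C content within 50 bp of the summit was near that of all mm9 peaks, at 57.4% under Hox peaks against 56.4%. The median observed-to-expected CpG ratio within 100 bp was higher under Hox peaks, at 0.533 against 0.379.

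The promoter table held 24 promoter windows of 22 Hox genes, each from 250 bases before to 50 after a 5' end. Of these, 4 (16.7%, 95% exact binomial interval 4.74 to 37.4) held CAGCTG or CACCTG, against 32.9% of all 32851 promoters. The 4 were those of Hoxa3, Hoxa5, Hoxa6 and Hoxa11, all with CAGCTG, and CACCTG was in none, against 20.2% of all promoters. Hoxa3 and Hoxa6 had an optimal summit within 5 kb, whereas Hoxa5 and Hoxa11 had none. The Hox promoters were richer in CpG, with a median observed-to-expected ratio of 0.626 against 0.384, and in G+C, with 57.7% against 52.7%, and the part of base composition in these shares was not tested.

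Genes that act with or upon the Hox clusters were set beside them, read against the same 47.7% of all genes. Of 11 genes of TALE homeodomain proteins, a class that includes DNA-binding partners of HOX proteins, 7 had an optimal summit within 5 kb. The list does not hold every TALE gene, and not every gene on it encodes such a partner. The strongest signals were at Tgif1 (89.6), Pbx2 (75.7), Pbx3 (73.8), Pknox1 (39.7) and Pbx4 (34.4), while Meis1, Meis2 and Pknox2 had none. Meis1, the partner of Hoxa9 in leukaemia, had 8 relaxed summits, the strongest at 15.5. Of regulators of the clusters and their close relatives, 3 of 11 had a summit, Egr2 (29.1), an activator of Hox genes in the hindbrain, Gsx1 (27.6) and Evx2 (19). Cdx2 and Cdx4, which act on Hox genes in the embryo's tail, had none.

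Polycomb genes had a summit in 23 of 30 cases (76.7%, 57.7 to 90.1). Mtf2, a targeting subunit of Polycomb repressive complex 2, had the strongest at 281, and other strong ones lay at Aebp2 (159), Rbbp7 (122) and Kdm2b (84.1). Rnf2, Phf1, Cbx7 and Phc1 were among those without. MLL complex and elongation genes had a summit in 17 of the 18 measured (94.4%, 72.7 to 99.9), with the highest signals at Rbbp5 (115), the methyltransferase gene Kmt2d (93), Dot1l (73.1), Kmt2c (69.5) and Ash2l (64.9), and none at Dpy30. Genes of both machineries that set the state of Hox chromatin thus carried summits more often than the Hox genes in these counts, whose difference was not tested.

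Among homeobox genes outside the clusters, the developmental list had a low share and the list named for blood cells a high one. The second list is not limited to genes particular to blood, so the contrast is between lists and not between tissues. Of 41 other developmental homeobox genes, 5 had a summit (12.2%, 4.08 to 26.2), among them Six2 (72.5), Lhx2 (40.5), Dlx6 (35.6) and Dlx4 (14.6), and genes such as Dlx5, Msx1 and Otx2 had none. These genes had a median of 2 relaxed summits, against 4 for Hox genes. Of the 11 homeobox and related genes on the blood-cell list, 9 had a summit. The strongest were at Adnp (151), Zhx1 (113), Hmbox1 (66.3), Zeb2 (65) and Hhex (58.1), whereas Pou2f2 and Satb1 had none. The range among lists gives the setting of the Hox value of 30.8%, and no test sets the Hox genes apart from any one list.

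The B-cell label was set against marker genes, whose peaks show binding and not expression. All 6 B-cell markers had an optimal summit, led by Cd79b (209), Pax5 (172), Cd22 (155), Cd79a (143) and Ebf1 (138). Summits lay near 3 of 6 T-cell markers, 2 of 5 myeloid markers and 2 of 4 fibroblast markers, the strongest of these at Lck (116), Itgam (88.7) and Pdgfra (23.5). The B-cell markers each reached at least 123, above every Hox gene.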

How the data were processed

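TCF12 ChIP-seq peaks of 2 biological replicates of CH12.LX were used as deposited. Per the deposited file descriptions, the authors called relaxed peaks, with background, on each replicate and on the pooled data against a control, passed these through IDR on mm10 to give optimal and conservative lists, and made a separate mm9 list from both replicates. The signal and the scaled IDR score of each peak are the authors' values. No aligner or caller is named in these sources. Read depth is unknown, so intervals cover counting error only.

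A summit is the peak start plus the deposited offset, counted from 1. Genes of mm10 came from RefSeq spans (GRCm38.p6), with strand from GENCODE vM1 by symbol or else from the RefSeq promoter table; 20923 of 21631 protein-coding genes (96.7%) received one. The outer end of a span was taken as the 5' end. The strand of all 39 Hox genes came from GENCODE. Windows ran from the first to the last Hox gene plus 50 kb. Genome densities used the 2560 Mb between the outermost relaxed summits of each chromosome. Replicate values are the strongest overlapping peak (at least 1 bp) in each replicate's list. Sequence came from NCBIM37 (mm9) and from RefSeq promoters and microRNAs (GRCm38.p6), and no coordinate was converted between builds, so the mm9 and mm10 peaks are not matched. Motifs were sought on both strands. Python 3.11.15, numpy 2.4.6, pandas 2.3.3 and scipy 1.17.1 were used, and window counting was tested on simulated summits.

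The members and the 10 gene lists were chosen with earlier results of these data known, and Kmt2b, listed among the MLL genes, was not analysed here. Hox genes with an optimal summit within 5 kb and the optimal peaks of the windows are named, with the 10 other Hox genes of highest relaxed signal, and up to 5 genes with and 4 without a summit of each other list. A few genes and sequences that these rules choose are not reported here, though all counts include them. Alternatives were the distance, the flank, the conservative list, a stricter IDR score, each replicate alone, merged summits, the mm9 list and other sequence windows.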

Additional observations from a re-analysis of the deposited data

How the results depend on the processing

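Of 67 alternatives computed over the counts and shares, 56 stayed within 1.5 times the reported count or within the interval of the reported share. The count of Hox genes with an optimal summit, 12, became 4 within 1 kb and 20 within 10 kb. It was 16 with either replicate left out, 11 at an IDR score of at least 830, 13 in the conservative list, against 47.7% of all genes, 10 in the mm9 list, 12 with every listed 5' end, and 5 within 1 kb in the mm9 list, the last 2 chosen after seeing the data. An IDR score of at least 830 left 4 optimal summits in the Hoxb window and 2 in the Hoxd window. With 1 replicate left out the Hoxb count ranged from 9 to 11 and the Hoxc count from 6 to 9. The Hoxc window held 2 without flanks and 8 with flanks of 100 kb, and the Hoxd window held 4 in the mm9 list. Without flanks the Hoxa window held 33 relaxed summits in place of 60. The mm9 E-box share was 40% within 100 bp of the summit, against 43.9% of all peaks, and 10% within 25 bp, against 18.3%. The cause of these shifts was not tested, beyond the larger or smaller regions and lists that the alternatives themselves set. No paired analysis was possible because there is 1 group. Depth is unknown and there are 2 replicates, so a gene without a summit may still be bound.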

Other observations

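CACGTG, an E-box of other basic helix-loop-helix families, was in 5 of 24 Hox promoter windows (20.8%, 95% exact binomial interval 7.13 to 42.2), against 7.15% of all promoters. Under the mm9 Hox peaks it was in 0 of 20, against 3.56% of all mm9 peaks. TGATNNAT, a sequence of the kind bound by paired HOX and PBX proteins, was in 1 of 20 Hox peaks (5%), against 1.58% of all peaks. Of the 5 mm9 Hox peaks within 1 kb of a protein-coding 5' end, 2 held CAGCTG or CACCTG, against 14.4% of all such peaks. Of the 15 farther away, 3 held one (20%), against 39.6%. These motifs were counted among others after earlier results were known, and the small numbers allow no reading of the differences.

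The conservative list held 8 peaks in the Hox windows that the optimal list did not, with signals between 9.63 and 25.9. Of these, 4 lay within 5 kb of a Hox 5' end, 2 of them at Hoxb6 and 1 at Hoxc6.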
